A study of Mus musculus with 4 samples.

Results

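The cell division cycle was followed in immune cells of the mouse lung through 54 genes, of which 26 are active around the passage from G1 into S phase and 28 in G2 and mitosis. The genes were taken by symbol from a fixed list that uses no measured value, and all 54 were found among the 31053 genes of the deposited matrices. Live CD45.2+ cells of the lung were captured with the Chromium 3′ v3 kit from C57BL/6J mice aged 10 weeks, 2 per genotype. The 2 WT mice carried floxed Lmna alleles and no Cre (Lmna-flox/flox Vav1-cre-/-). The 2 knockout mice carried the same floxed alleles and a Cre transgene under the Vav1 promoter, which is active in blood-forming and immune cells (Lmna-flox/flox Vav1-cre+/-). Every knockout mouse and no WT mouse carried Cre, so loss of Lmna, which encodes lamins A and C of the nuclear lamina, and presence of Cre cannot be told apart. The labels do not say whether the mice were littermates, and every test below measures only the spread between 2 mice per genotype.

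A cell that commits to division first turns on genes for DNA replication. The MCM2-7 helicase unwinds origins, PCNA clamps the polymerases to DNA, and ribonucleotide reductase, thymidylate synthase and dUTPase keep the nucleotide pool in order. E2F transcription factors drive many of these genes once cyclin D and cyclin E kinases have inactivated the retinoblastoma protein. Genes for mitosis follow, among them the B-type cyclins, the kinases and motors of the spindle, the centromere proteins and the ubiquitin machinery that ends mitosis. Many of these depend on a promoter element called CHR and on CCAAT boxes. Most mature lymphocytes, neutrophils and monocytes of the lung rest outside the cycle, while T cell precursors and activated lymphocytes divide.

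The promoters of the 2 groups of genes differed in these elements. RefSeq windows (GRCm38.p6) were found for 47 of the 54 genes, some with more than 1 start site, and each window, from 250 bases before the start to 50 after it, was searched on both strands. The E2F-type words were TTTGGCGC, TTTCCCGC, TTCCCGCC and TTTCGCGC. They overlap each other in part, and at least 1 of them was found in 11 of 25 G1/S windows (44.0%), 1 of 26 G2/M windows (3.85%) and 1145 of 32851 windows of all genes (3.49%). The CHR-type words TTTGAA and TTCGAA occurred in 21 of 26 G2/M windows (80.8%), 4 of 25 G1/S windows (16.0%) and 19.2% of all windows. A CHR-type word together with CCAAT was present in 20 of 26 G2/M windows (76.9%), 3 of 25 G1/S windows (12%) and 7.52% of all windows. CCAAT alone is common, with a match in 84.6% of G2/M, 60.0% of G1/S and 37.4% of all windows. A matching word is a description and not a shown binding site. The 250 bases before the start are shown for 3 helicase genes with the E2F-type words in capitals, 5′ to 3′ on the gene's strand: Mcm6 (chr1:128359706-128359955, minus strand), Mcm7 (chr5:138171884-138172133, minus strand) and Mcm5 (chr8:75109259-75109508, plus strand).
Mcm6: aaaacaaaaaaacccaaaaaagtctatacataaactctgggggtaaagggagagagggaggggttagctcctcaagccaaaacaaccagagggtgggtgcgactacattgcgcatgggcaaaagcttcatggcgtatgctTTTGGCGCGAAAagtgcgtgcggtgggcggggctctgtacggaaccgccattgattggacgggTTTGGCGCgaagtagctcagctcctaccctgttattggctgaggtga
Mcm7: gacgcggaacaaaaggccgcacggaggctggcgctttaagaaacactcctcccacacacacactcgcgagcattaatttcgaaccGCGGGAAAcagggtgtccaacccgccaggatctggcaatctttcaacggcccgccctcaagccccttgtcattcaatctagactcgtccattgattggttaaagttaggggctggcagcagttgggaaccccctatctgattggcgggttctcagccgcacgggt
Mcm5: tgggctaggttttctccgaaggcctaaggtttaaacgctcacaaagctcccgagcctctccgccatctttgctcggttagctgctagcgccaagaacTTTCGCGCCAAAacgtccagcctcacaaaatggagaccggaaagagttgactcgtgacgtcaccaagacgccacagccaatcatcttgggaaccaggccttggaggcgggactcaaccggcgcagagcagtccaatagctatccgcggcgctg
In the next sequences the capitals mark CHR-type words and CCAAT boxes on either strand. They belong to 3 mitotic genes on which the results below turn: Top2a (chr11:99024190-99024439, minus strand), Mki67 (chr7:135716380-135716629, minus strand) and Ube2c (chr2:164769679-164769928, plus strand).
Top2a: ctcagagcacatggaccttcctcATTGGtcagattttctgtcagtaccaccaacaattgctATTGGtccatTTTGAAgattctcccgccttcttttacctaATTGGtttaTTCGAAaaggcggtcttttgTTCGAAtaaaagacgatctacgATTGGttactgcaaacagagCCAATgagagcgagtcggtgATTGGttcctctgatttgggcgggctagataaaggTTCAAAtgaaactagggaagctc
Mki67: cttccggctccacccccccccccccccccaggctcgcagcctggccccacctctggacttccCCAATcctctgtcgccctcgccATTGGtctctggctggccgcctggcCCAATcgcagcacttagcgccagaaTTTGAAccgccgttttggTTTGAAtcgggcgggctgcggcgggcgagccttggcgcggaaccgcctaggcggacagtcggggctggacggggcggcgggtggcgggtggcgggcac
Ube2c: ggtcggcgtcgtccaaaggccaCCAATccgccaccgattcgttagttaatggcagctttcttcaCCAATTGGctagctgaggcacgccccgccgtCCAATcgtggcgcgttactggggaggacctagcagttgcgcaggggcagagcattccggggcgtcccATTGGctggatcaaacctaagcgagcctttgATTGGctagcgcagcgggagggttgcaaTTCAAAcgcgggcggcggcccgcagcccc

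The libraries held 3860 to 4322 cell barcodes and 21780914 to 27045250 UMIs (unique molecular identifiers, 1 per captured RNA molecule), and 14720 cells were kept after filters on genes, mitochondrial RNA and doublets. Pairs of libraries shared 2 to 7 barcodes. The median depth per kept cell was 4849 UMIs in WT 1 and 4593 in WT 2, against 4060 in knockout 1 and 4481 in knockout 2. Cells were assigned to classes by marker genes, none of which is among the 54, and 229 stayed unassigned. In the classes compared below, cells carried a median of 6 or 7 of their own markers and at most 3 of the next class. WT 2 stood apart: 412 of its cells carried at least 2 of 6 markers of T cell precursors (Rag1, Dntt and Ptcra among them), a state found in no cell of WT 1 or knockout 1 and in 11 of knockout 2. With at least 3 markers required, 375 cells of WT 2 and 8 of knockout 2 remained. Rag1, part of the enzyme that rearranges antigen receptor genes, had a UMI in 357 of those 412 cells. Among 4686 cells of the T lineage, 161 had exactly 1 of the 6 markers and 40 exactly 2. No precursor barcode of WT 2 was shared with knockout 2. A normal lung is not a site of T cell development, and where these cells came from was not tested. Values are therefore given with and without WT 2 or the precursors.

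Summed over all kept cells, the 26 G1/S genes took 458 CPM in WT 1 and 1315 in WT 2, against 458 in knockout 1 and 482 in knockout 2. The 28 G2/M genes took 247 CPM in WT 1 and 1523 in WT 2, against 382 in knockout 1 and 282 in knockout 2. WT 2 was the highest library for both lists, and the genotypes overlapped. Without the precursors WT 2 lay near the others, at 476 CPM for G1/S and 256 CPM for G2/M, while knockout 2 had 436 and 219. CPM is a gene's UMIs scaled to the same total in every library or class. In such summed values fewer cells of a type and less RNA per cell cannot be told apart.

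**Figure D1:**
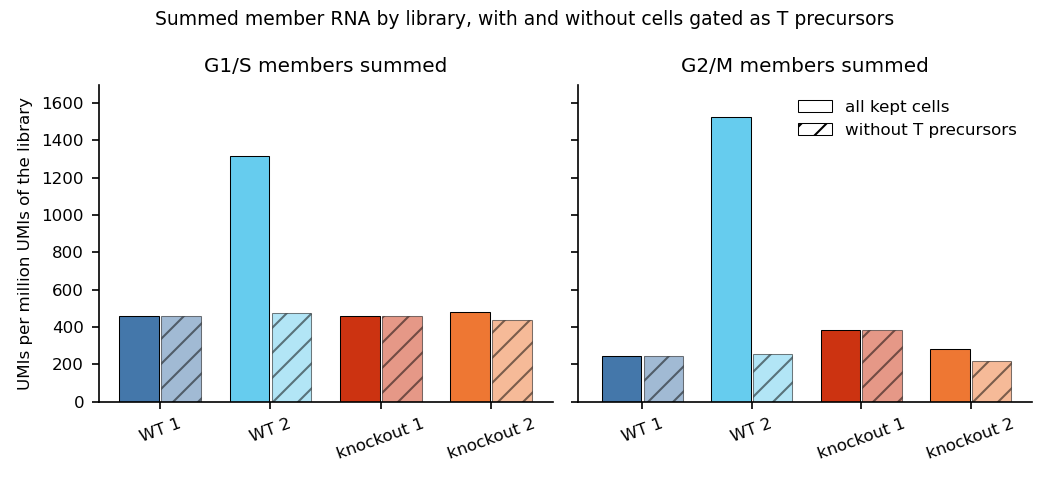
Summed CPM of the 26 G1/S and 28 G2/M genes in each of the 4 libraries, over all kept cells and without cells gated as T precursors. WT 2 reaches 1523 for G2/M with the precursors and 256 without them; the other libraries lie between 219 and 382.

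Among the G1/S genes, Slbp, which binds the stem-loop of histone mRNAs, was the most abundant (7926 UMIs over the libraries). It was followed by the dUTPase gene Dut (6999), Pcna (6141), Mcm6 (3893), Mcm7 (3598) and Mcm3 (3550). The G2/M list was led by Cenpa, the centromeric histone H3 (7253), topoisomerase gene Top2a (7104), the proliferation antigen Mki67 (5121), Ube2c, the ubiquitin-conjugating enzyme of the anaphase promoting complex (4367), the survivin gene Birc5 (3077) and Cenpf (2503). The lowest totals belonged to the cyclin E genes Ccne2 (249) and Ccne1 (371) and to the checkpoint kinase gene Bub1 (407). A 3′ count depends on capture as well as on the level of an RNA, so these totals rank how well each gene was measured.

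Mki67 was at 18.4 CPM in WT 1 and 149 in WT 2, against 31.6 in knockout 1 and 19.2 in knockout 2. Without the precursors it was at 18.4 in WT 1 and 18.4 in WT 2, against 31.6 in knockout 1 and 11.9 in knockout 2. Pcna was at 56.8, 107, 53.5 and 53.5 CPM in the same order, and at 55.4 in WT 2 without the precursors. Precursors held 43.7% (E2f1) to 91.3% (Rrm2) of the WT 2 UMIs of the G1/S genes, with a median of 68.7%. For the G2/M genes the share ran from 50.3% (Kif23) to 93.3% (Ube2c), with a median of 88.7%. WT 2 was also the highest library for the helicase subunits: Mcm2 was at 41.6 CPM in WT 2 and 16.0 to 17.8 in the other libraries, Mcm4 at 38.5 against 21.0 to 23.0, and Mcm5 at 52.0 against 19.7 to 21.7. Ccne1 was at 7.32 CPM in WT 2 and 2.63 to 3.72 elsewhere, and E2f1 at 18.2 against 7.74 to 10.9.

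To find dividing cells at equal depth, each cell was thinned to 2000 UMIs, and a cell was called cycling when at least 3 of the 28 G2/M genes had a UMI. This is a range on a per-cell count and not a cell type: 38 cells had exactly 3 genes and 251 had 2. Of 13623 cells deep enough, 255 were cycling. T precursors held 154 of them (60.4%) while making up 2.72% of the cells scored. In WT 2, 149 of 362 precursors were cycling (41.2%, exact 95% interval 36.0 to 46.4), and in knockout 2 it was 5 of 9 (55.6%, 21.2 to 86.3). These and the following intervals cover counting error only. The precursors spread widely, with 170 of 371 at 0 G2/M genes and others at up to 24, whereas 10189 of the 13252 other cells had 0 and 234 had 2.

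Neutrophils, which are past division, gave the background: 3 of 1264 reached the threshold (0.237%, 0.0491 to 0.692), all in WT 2, at a median depth of 2573 UMIs in the other scored neutrophils. Without WT 2, 0 of 928 did, which allows a share of up to 0.323%. The class held 2047 kept cells at a median of 2197 UMIs, and those under 2000 UMIs were not scored. Among the 10 mature classes that had 25 cells or more per library, cells gated as regulatory T had the highest share, 14 of 251 (5.58%, 3.08 to 9.18). The counts were 4 of 62 in WT 1 and 2 of 32 in WT 2, against 5 of 74 in knockout 1 and 3 of 83 in knockout 2. All 4 libraries were above the neutrophil interval. Regulatory T is the name of the gate: of its 237 cells not called cycling, 96 had a UMI of Foxp3, 112 of Cd4 and 53 of Cd8a. With 1 more marker required, the gate held 110 cells, 8 of them cycling, against 254 kept cells before. Among these classes alveolar macrophages followed with 10 of 502 (1.99%), natural killer (NK) cells with 11 of 1012 (1.09%), CD8 T cells with 18 of 1805 (0.997%) and CD4 T cells with 9 of 1211 (0.743%). B cells had 9 of 3649 (0.247%), close to the neutrophil share, and nonclassical monocytes had 0 of 1095, which allows up to 0.274%. Smaller classes had wide intervals: 4 of 52 conventional dendritic cells were cycling (7.69%, 2.14 to 18.5), 2 of 27 plasma cells (7.41%, 0.910 to 24.3) and 3 of 87 gamma-delta T cells (3.45%, 0.717 to 9.75).

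Without WT 2, 73 cycling cells remained. They were spread over CD8 T cells (13), regulatory T cells (12), CD4 T cells (9), NK cells (9), B cells (6), T precursors (5) and alveolar macrophages (4), with smaller classes holding the rest. Regulatory T cells then made up 16.4% of the cycling cells and 2.15% of the cells scored. Depth moves with these shares: cycling regulatory T cells had a median of 19142.5 UMIs before thinning against 5261 for the others of the gate, and cycling precursors had 16318.5 against 2954. Counted without thinning, the share was 14.6% in regulatory T cells and 22.6% in alveolar macrophages, whose median depth of 15177 UMIs exceeds that of lymphocytes. Of the precursor markers, Rag1 was at 0 in every cycling cell gated as regulatory T, CD4 T, CD8 T, NK, alveolar macrophage or B. Of the 14 cycling regulatory T cells, 9 had a UMI of Foxp3, their defining transcription factor, and 14 had one of Ctla4. Cd4 had a UMI in 10 of the 14 and Cd8a in 3.

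**Figure D2:**
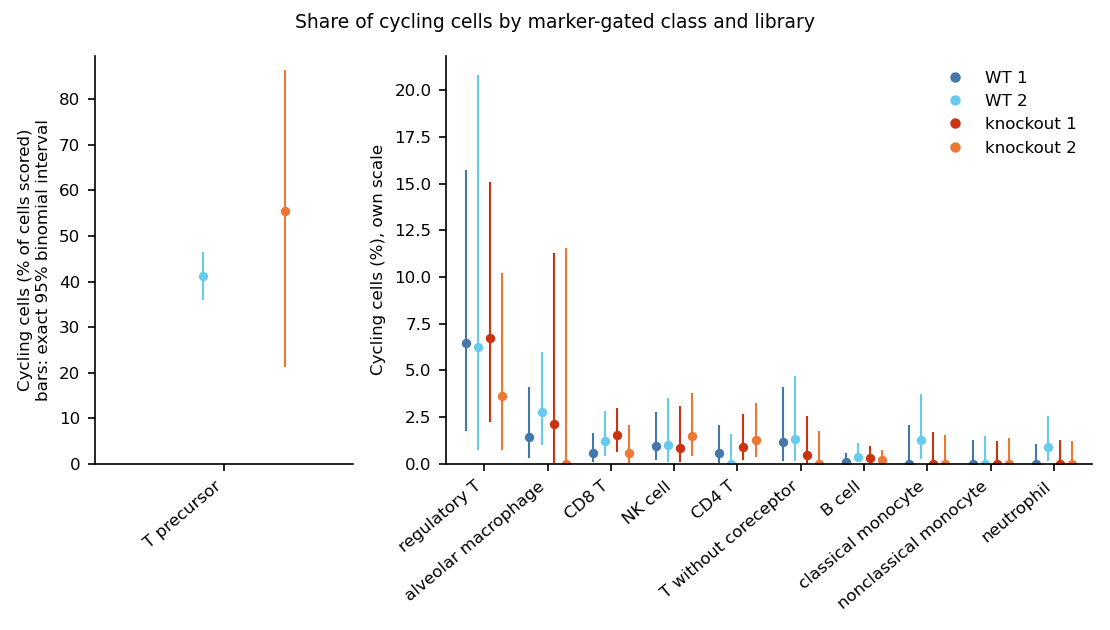
Percentage of cells called cycling after thinning to 2000 UMIs in each gated class, 1 point per library with exact 95% intervals. T precursors in WT 2 are at 41.2%, the regulatory T gate between 3.61% and 6.76%, and neutrophils at 0.237% over the libraries.

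The rule for cycling cells used the G2/M genes only, so the G1/S genes are a separate readout of the same cells. Of the cycling cells, 134 of 154 T precursors had at least 3 G1/S genes among their 2000 UMIs, as did 10 of 14 regulatory T cells, 12 of 18 CD8 T cells and 9 of 11 NK cells. The figure was 3 of 10 in alveolar macrophages and 3 of 9 in B cells. These counts are too small for a test over libraries. Outside the precursors every G1/S gene was higher in cycling than in other cells, from 2.37-fold (Ung, uracil DNA glycosylase) to 131-fold (Rrm2, a ribonucleotide reductase subunit), with a median of 9.52-fold. Over all cells, cycling cells held 89.4% of the Rrm2 UMIs and 22.0% of the Ung UMIs. Among the G2/M genes, which chose the cells, the share ran from 28.5% (Cenpa) to 96.7% (Nusap1), so Cenpa was mostly counted outside dividing cells.

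The phases were compared within the precursors of WT 2. Of 362 cells, 129 had at least 3 genes of each list (35.6%), 30 of the G1/S list only (8.29%), 20 of the G2/M list only (5.52%) and 183 of neither (50.6%). Of the 13252 other cells 58 had both, 543 (4.10%) G1/S only and 43 G2/M only. Across the precursors the number of UMIs of the 2 lists correlated positively (Spearman 0.64, n = 362 cells of 1 library), and among the 149 cycling precursors negatively (-0.37). These are descriptions within 1 library, over cells that share its depth and free RNA. The 149 cells were also chosen by their G2/M genes, which can by itself change the correlation, so its sign does not show separate phases. The precursor genes differed in CPM between the states too. Rag1 was at 254 CPM in the 149 cycling cells and 1202 in the 213 others, and Cd4 at 117 and 464. Dntt, the enzyme that adds bases at receptor junctions, was at 1286 and 1528. Cycling cells held more UMIs each, so a lower CPM does not show fewer molecules per cell. Rag1 had a UMI in 127 of the 149 cycling cells and 187 of the 213 others, and Cd4 in 106 and 168. Rag2 had one in 84 and 65 cells, and Ptcra in 80 and 48. Dut was at 1063 CPM in cycling precursors and 419 in the others, and Ung was lower in CPM in the cycling cells, at 56.2 against 93.4.

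Class by class, the T precursors had the highest summed levels, with 5549 CPM of G1/S genes and 7913 of G2/M genes in WT 2 and 6978 and 9350 in the 11 cells of knockout 2. By role, the precursors of WT 2 spent 2052 CPM on nucleotide supply, 1991 on Mki67 and Top2a, 1512 on spindle and cytokinesis genes, 1320 on the helicase and 114 on the cyclin E genes and E2f1. The regulatory T gate came next for G2/M and overlapped NK cells for G1/S. Its G2/M sum was 2524 CPM in WT 1 and 1498 in WT 2, against 1557 in knockout 1 and 813 in knockout 2, and its G1/S sum was 1572, 2762, 1030 and 1215. The G1/S sum in neutrophils was 93.8 to 133 CPM. Every library of the regulatory T gate lay above every library of the neutrophil gate.

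**Figure D3:**
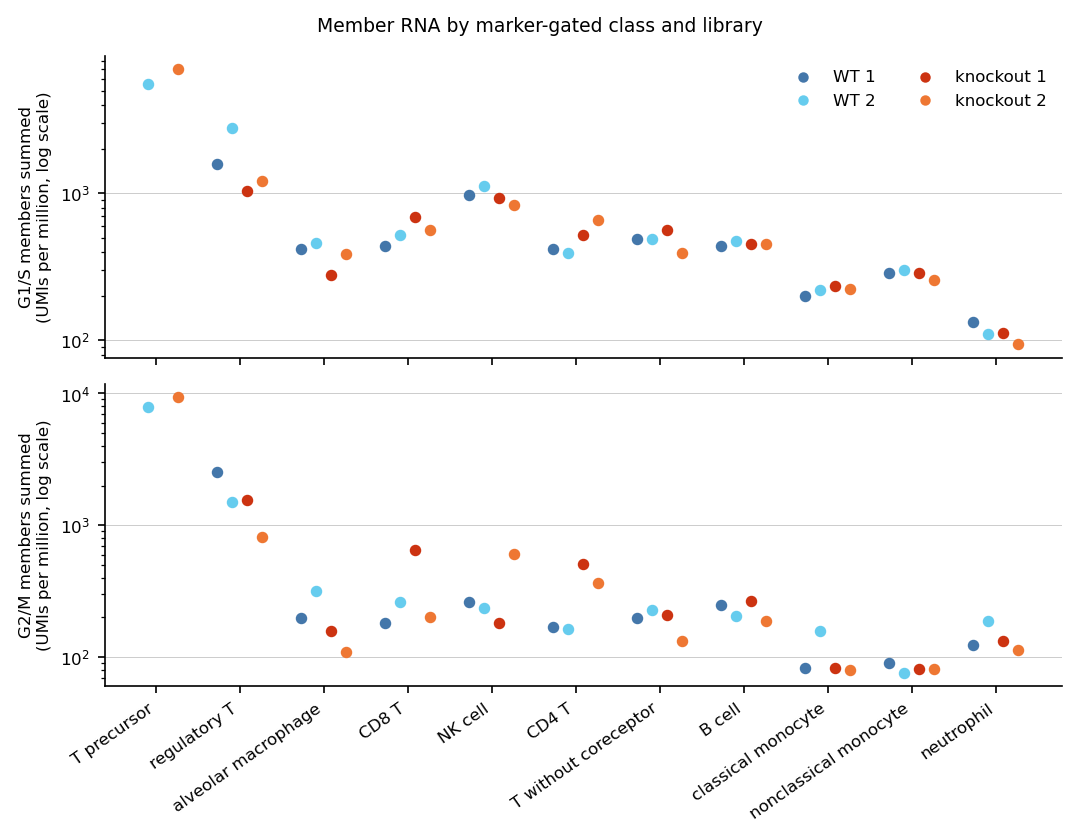
Summed CPM of the G1/S and G2/M genes by gated class, on a log axis, 1 point per library. T precursors (5549 and 7913 in WT 2) lie above the other classes, regulatory T cells come next for G2/M and overlap NK cells for G1/S, and neutrophils at 93.8 to 133 for G1/S are the lowest.

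The 10 classes with enough cells were then compared in 1 edgeR fit over 10784 genes, each class against the mean of the other 9, with T precursors left out. Its standard errors and p-values measure the spread left after terms for class and library, pooled over both genotypes, and every mouse gives a sum to every class. In the regulatory T gate 23 of 24 tested G1/S genes and 27 of 27 G2/M genes were higher, while 18.9% of all genes tested were. The median log2 difference was 2.20 for G1/S, 3.60 for G2/M and 0.01 for all genes. Mki67 was at 241 CPM in WT 1 and 204 in WT 2, against 162 in knockout 1 and 78.7 in knockout 2, with a log2 difference of 4.09 ± 0.43 (SE, adjusted p = 8.54e-09, edgeR). Cenpa differed by 1.62 ± 0.12 and Pcna by 1.01 ± 0.15. When 1 more marker was required to enter a gate, 19 of 25 G1/S genes and 22 of 27 G2/M genes tested were higher. Without WT 2 the counts were 23 of 24 and 26 of 27.

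In NK cells 19 of 24 G1/S genes but 5 of 27 G2/M genes were higher, against 26.5% of all genes. Mcm6 was at 111 CPM in WT 1 and 118 in WT 2, against 86.8 in knockout 1 and 94.4 in knockout 2 (log2 difference 2.02 ± 0.15, SE), and Slbp at 161, 180, 199 and 196 (1.07 ± 0.08). Without knockout 2, 1 G2/M gene was higher and 2 were lower in NK cells. CD8 T cells had 17 of 24 G1/S and 9 of 27 G2/M genes higher (33.0% of all genes), with Ung at 12, 18.9, 22.4 and 17.0 CPM (2.60 ± 0.28). In CD4 T cells the counts were 10 and 2 (28.4% of all genes) and in B cells 11 and 2 (37.8%). Neutrophils had 19 of 24 G1/S genes lower (37.5% of all genes) and classical monocytes 18 of 24 (27.8%). Higher G1/S and G2/M genes numbered 1 and 3 in neutrophils (35.8% of all genes), 1 and 1 in classical monocytes (36.1%), 0 and 1 in nonclassical monocytes (32.9%), 7 and 1 in T cells without a coreceptor (24%) and 4 and 5 in alveolar macrophages (37.5%).

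Single genes of the 2 lists stood high in classes where most cells were not called cycling. Kif23, a motor of the central spindle, was at 73.1 CPM in neutrophils of WT 1 and 83.3 in WT 2, against 88.3 in knockout 1 and 59.9 in knockout 2, above the mean of the other classes by 2.87 ± 0.14 on the log2 scale (SE, adjusted p = 1.52e-23, edgeR). Alveolar macrophages held 10 cycling cells and 492 others, the highest share after regulatory T cells among the classes compared. There Bub1b, a spindle checkpoint kinase, was at 35.1, 31.2, 32.3 and 27.8 CPM (3.47 ± 0.24). The G1/S gene E2f1 was at 36.2, 36.9, 32.3 and 33.3 (2.29 ± 0.17). Anln, an actin-binding protein of the cleavage furrow, was 2.99 ± 0.32 higher there, while Mki67 was not past the threshold (0.46 ± 0.53, adjusted p = 0.457). Of the cells gated as alveolar macrophages, 90 of 214 in WT 1 had a UMI of Bub1b and 25 had one of Mki67. Cenpa was at 113 to 158 CPM in B cells (1.37 ± 0.08), a class near the background of cycling cells.

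Lmna, the targeted gene, was checked first between genotypes. In alveolar macrophages it was at 375 CPM in WT 1 and 335 in WT 2, against 60.0 in knockout 1 and 82.1 in knockout 2, a log2 difference of -2.33 ± 0.17 (SE, adjusted p = 6.95e-10, edgeR). Over all kept cells the difference was -2.13 with the precursors and -2.25 without them. Here and in the other tests between genotypes, CPM are scaled with the library sizes that edgeR normalised by TMM, so they can differ a little from the plain CPM above. By class Lmna also passed the test in NK cells (-1.90, adjusted p = 0.0166) and in no other class. The difference was -0.54 in CD4 T cells (adjusted p = 0.809), -1.17 in regulatory T cells (0.367) and -1.29 in CD8 T cells (0.459), from 5 to 36 UMIs per library in the CD8 T gate. It was -0.18 in neutrophils (0.983), 0.26 in classical monocytes (0.775) and 0.35 in nonclassical monocytes (0.879). The lower Lmna level of the knockouts thus did not pass this test in the T cell gates that hold most of the calls below.

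Over all kept cells none of the 54 cell cycle genes passed the test between genotypes, where 0.44% of all genes did. At an unadjusted p under 0.05 there were 2, and DESeq2 called 1 lower. Without WT 1, which leaves the library with the precursors as the only WT sample, 43 were lower. The log2 difference was negative for 53 of the 54, with a median of -1.58, and the smallest adjusted p was 0.229 (Anln, edgeR). Without the precursors the median was -0.00. Then 1 of the 54 genes was higher and 2 were lower, where 1.09% of all genes tested were higher and 4.41% lower. The share of members called is close to that background. Cenpa was at 61.8 CPM in WT 1 and 56.3 in WT 2, against 87.7 in knockout 1 and 74.3 in knockout 2 (log2 0.46 ± 0.10, adjusted p = 0.0430). E2f1 was at 10.9, 12.5, 7.68 and 7.39 (-0.63 ± 0.14, adjusted p = 0.0366) and Anln at 4.97, 5.28, 2.38 and 1.62 (-1.35 ± 0.26, adjusted p = 0.0223). The genotypes did not overlap for these 3, which were picked by a test on the same libraries, so this adds no support. None of the calls held without WT 1 or without WT 2 (Cenpa 0.184 and 0.177, E2f1 0.131 and 0.159, Anln 0.178 and 0.13). Alveolar macrophages, where E2f1 and Anln are high, were 214 and 227 of the kept cells in WT and 52 and 30 in the knockouts, and their part in these sums was not tested.

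Within classes, 7 higher and 5 lower calls were made over 10 fits. In cells gated as CD4 T, 5 of 32 tested genes were higher in the knockouts and none lower, where 0.143% of all genes were higher and 0.344% lower. The median log2 difference was 2.76 over 14 tested G2/M genes of the 28 listed, 0.41 over 18 G1/S genes and 0.00 over all genes. A gene could pass the low count filter through the knockouts alone, and the 5 called genes had 0 to 4 UMIs in each WT library. The share of 5 in 32 and the G2/M median therefore depend on the filter. Neither describes the whole list of 54 genes. Mki67 was at 1.62 CPM in WT 1 and 0.815 in WT 2, against 29.1 in knockout 1 and 27.3 in knockout 2, with 3, 1, 47 and 46 UMIs (4.36 ± 0.46, SE, adjusted p = 0.000112, edgeR). Birc5 had 2, 2, 54 and 30 UMIs (4.21 ± 0.54, adjusted p = 0.000601). The cyclin gene Ccnb2 had 0, 0, 22 and 20 UMIs, at least 13.9-fold higher against a floor of 3 counts over the WT group (adjusted p = 0.00212). Cenpf, a kinetochore protein, had 4, 2, 41 and 15 UMIs (3.08 ± 0.62, adjusted p = 0.0396), and Cdca8, borealin of the Aurora B complex, had 3, 1, 23 and 14 (3.04 ± 0.64, adjusted p = 0.0386). No WT library overlapped a knockout library for these 5 genes, which adds no support, since the test on the same libraries picked them.

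Very few cells carry this difference. Cells called cycling in the CD4 T gate numbered 2 in WT 1 and 0 in WT 2, against 3 in knockout 1 and 4 in knockout 2, and the 54 Birc5 UMIs of knockout 1 came from 2 cells, 37 of them from 1. When the gate required 1 more marker, 625 cells were left with 3, 1, 2 and 3 cycling cells, and the Mki67 difference was 0.27 (adjusted p = 0.974). Birc5 was then at 1.67 (adjusted p = 0.868). Leaving out knockout 1 ended the call of Cenpf (adjusted p = 0.679) and of Cdca8 (0.649), and leaving out knockout 2 that of Ccnb2 (0.0645) and Cdca8 (0.155).

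In cells gated as regulatory T the direction was the opposite. There 4 of 41 tested genes were lower in the knockouts and none higher, where 0.656% of all genes were lower and 0.23% higher. The median log2 difference was -0.91 over 20 G1/S genes and -0.98 over 21 G2/M genes, again over the genes that passed the filter. Top2a was at 415 CPM in WT 1 and 303 in WT 2, against 149 in knockout 1 and 90.0 in knockout 2 (-1.61 ± 0.25, SE, adjusted p = 0.00173, edgeR). Rrm1, the large subunit of ribonucleotide reductase, was at 100.5, 144, 39.5 and 37.0 (-1.63 ± 0.32, adjusted p = 0.0106). Tyms, thymidylate synthase, had 47, 26, 18 and 21 UMIs (-1.36 ± 0.31, adjusted p = 0.0399), and Prc1, which bundles microtubules of the central spindle, had 42, 21, 18 and 8 (-1.70 ± 0.40, adjusted p = 0.0466). The WT libraries were above the knockout libraries in CPM for all 4, which the choice of genes by the test makes likely. The Top2a UMIs came from 7, 5, 6 and 10 cells, and 105 of the 198 in WT 1 came from 1 cell.

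DESeq2 called 1 of the regulatory T members lower. With 1 more marker in the gate, Top2a was at -0.52 (adjusted p = 0.789), and with cells carrying 1 precursor marker left out it was at -1.31 (adjusted p = 0.721). Tyms lost its call without knockout 1 (adjusted p = 0.149) and without knockout 2 (0.196), and Prc1 without knockout 2 (0.489). A fit of both gates was added after the values of each gate had been seen. In it, 22 of 49 tested members differed between the CD4 T and regulatory T gates in the effect of genotype (edgeR, adjusted p under 0.05). Of all genes 0.798% did, and with 1 more marker no member did. A few marker UMIs set the CD4 T and regulatory T gates apart, so their sum was looked at as well. The regulatory T gate did not require Cd4. Of its 237 cells not called cycling, 112 had a UMI of Cd4, 53 of Cd8a and 96 of Foxp3. Over both gates 6 of 405 cells were cycling in WT 1 and 2 of 263 in WT 2, against 8 of 401 in knockout 1 and 7 of 393 in knockout 2. Mki67 was at 51.6, 37.5, 60.9 and 40.5 CPM, and Top2a at 85.9, 58.2, 50.4 and 64.7. Birc5 was at 44.6, 22.6, 49.9 and 27.7 CPM, and Rrm1 at 29.1, 31.7, 21.5 and 20.2. In the sum the genotypes overlapped for Mki67, Top2a and Birc5, while Rrm1 was lower in both knockout libraries than in both WT libraries. The cycling shares were 1.48% and 0.760% in WT against 2.00% and 1.78% in the knockouts and did not overlap. Their intervals did overlap (0.546 to 3.2% in WT 1, 0.719 to 3.64% in knockout 2).

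**Figure D4:**
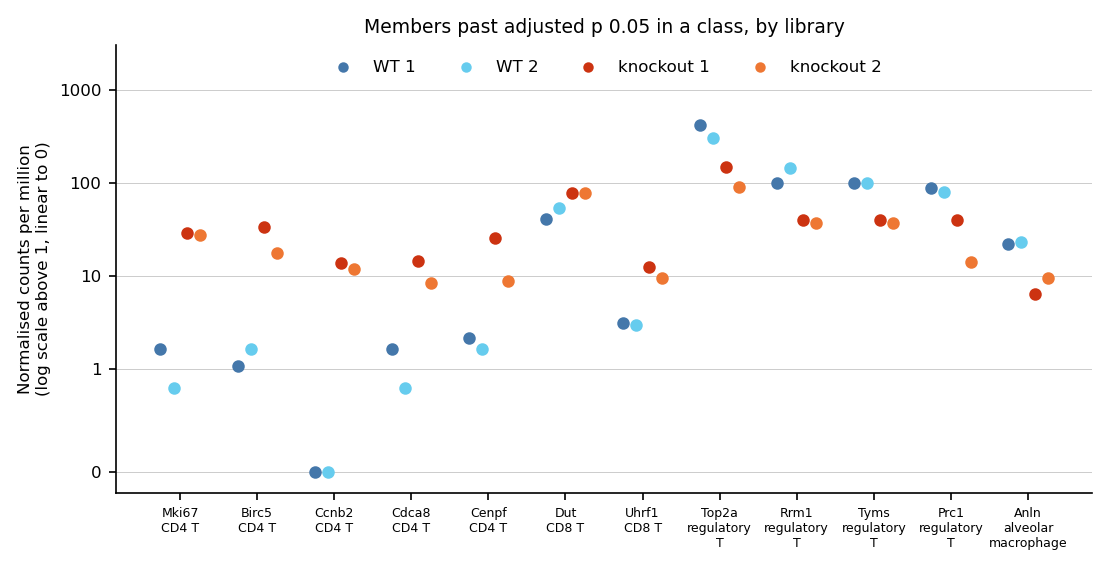
CPM in each library for the members of the 2 lists that passed the test between genotypes within a gated class, on an axis that is logarithmic above 1 and linear down to 0. In the CD4 T gate the knockout libraries lie above both WT libraries (Mki67 29.1 and 27.3 against 1.62 and 0.815), and in the regulatory T gate below them (Top2a 149 and 90.0 against 415 and 303).

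CD8 T cells had 2 of 41 tested genes higher and none lower, where 0.152% of all genes were higher and 0.305% lower. Dut was at 40.9 CPM in WT 1 and 53.9 in WT 2, against 77.4 in knockout 1 and 78.0 in knockout 2 (0.72 ± 0.15, SE, adjusted p = 0.0407, edgeR). Uhrf1, which guides DNA methylation to newly copied strands, was at 3.10, 2.97, 12.5 and 9.56 (1.86 ± 0.40, adjusted p = 0.0407). Neither gene's genotypes overlapped, which the choice of genes by the test makes likely. In knockout 2, 18 of the 20 Uhrf1 UMIs and 38 of the 163 Dut UMIs came from 1 cell. Dut lost its call without WT 1 (adjusted p = 0.343), and Uhrf1 without WT 1 (0.175), without WT 2 (0.115) and without knockout 1 (0.373), and DESeq2 called no member in CD8 T cells.

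In alveolar macrophages 1 of 30 tested genes was lower and none higher, where 2.83% of all genes were lower and 3.45% higher, so the share of members called is close to the background. Anln was at 22.2 CPM in WT 1 and 23.1 in WT 2, against 6.32 in knockout 1 and 9.55 in knockout 2 (-1.53 ± 0.42, SE, adjusted p = 0.0274, edgeR), from 80, 70, 4 and 5 UMIs. Its call was lost without WT 1 (0.234), without WT 2 (0.17) and without knockout 1 (0.24), and DESeq2 called no member here. The other 6 classes had no called gene by edgeR or DESeq2. At an unadjusted p under 0.05 edgeR gave 8 in NK cells, 3 in B cells, 2 in classical monocytes, 1 each in nonclassical monocytes and T cells without a coreceptor, and 0 in neutrophils. The smallest adjusted p there was 0.122 for Cenpf in NK cells, 0.340 for Mcm6 in classical monocytes, 0.384 for Uhrf1 in B cells, 0.456 for Mcm7 in nonclassical monocytes, 0.502 for Top2a in T cells without a coreceptor and 0.899 for Cenpa in neutrophils. The share of all genes called was 0.51%, 1.16%, 0.681%, 0.809%, 0.502% and 0.311% in the same order. In NK cells, 21 of 23 tested G1/S genes had a negative difference (median -0.36) and 11 of 11 G2/M genes a positive one (median 0.55), none past the threshold. Knockout 2 was the high library for the most abundant of these: Top2a had 69 and 39 UMIs in WT, 22 in knockout 1 and 112 in knockout 2, Mki67 had 32, 22, 23 and 55, and Cenpf had 8, 3, 9 and 36.

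The share of cycling cells itself did not differ detectably between genotypes. It was 0.637% in WT 1 and 5.33% in WT 2, against 0.830% in knockout 1 and 0.683% in knockout 2, and without the precursors 0.637%, 1.08%, 0.830% and 0.529%. The genotypes overlapped in both cases, and 2 against 2 libraries cannot give an exact two-sided permutation p below 0.33 (here 1.0 and 0.667). Counted without thinning the shares without precursors were 4.01% and 4.60% in WT against 2.30% and 2.13% in the knockouts. The deeply sequenced alveolar macrophages, 214 and 227 cells in WT against 52 and 30 in the knockouts, move with that difference, and their part in it was not tested. Within classes of at least 10 cycling cells, the log2 difference of knockout from WT was -0.31 ± 0.67 (SE) in regulatory T cells, 0.42 ± 0.58 in CD8 T cells, 0.30 ± 0.73 in NK cells and -0.67 ± 1.18 in alveolar macrophages, each with an adjusted p of 0.723 (edgeR). Their standard errors set how small a change these counts can show.

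A list of 81 other cell cycle genes gave the surroundings. Outside the precursors 69 of 80 with a value were over 2-fold higher in cycling than in other cells (median 8.97-fold), among them 35 of 35 mitotic genes and 19 of 20 genes of origin licensing and replication. Some genes that act before or against S phase were among the rest. The D-type cyclin Ccnd2 was at 0.795-fold, and the CDK inhibitors Cdkn1b at 0.686-fold and Cdkn1a at 0.820-fold. The pocket protein gene Rbl2 was at 1.11-fold. Other genes of these groups were over 2-fold. They were 3 of 6 CDK inhibitors (Cdkn2a at 15.9-fold) and 2 of 6 D-type cyclins and their kinases (Cdk2 at 3.46-fold). Among pocket protein and E2F regulator genes, 10 of 13 were over 2-fold (E2f7 at 111-fold). In the precursors of WT 2 Ccnd2 was at 0.275-fold, Cdkn1b at 0.473-fold and Rbl2 at 0.376-fold, the lowest of their groups. The highest of the same groups were Cdk2 at 2.75-fold, Cdkn2c at 4.82-fold and E2f8 at 13.2-fold.

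Between genotypes, few of these other genes passed the test. In CD4 T cells 2 of 51 were higher, where 0.143% of all genes were: Stmn1, a microtubule destabiliser, at 50.4 CPM in WT 1 and 61.2 in WT 2, against 108 in knockout 1 and 145 in knockout 2 (1.20 ± 0.17, SE, adjusted p = 0.00195, edgeR), and the chromatin protein gene Hmgb2 at 352, 356, 543 and 554 (0.63 ± 0.12, adjusted p = 0.0131). In regulatory T cells 1 of 56 was lower, where 0.656% of all genes were, the tubulin gene Tuba1b at 469, 499, 215 and 224 CPM (-1.14 ± 0.20, adjusted p = 0.00330). In B cells 1 of 58 was called, where 0.681% of all genes were: Ccnd2 was lower, at 111, 91.1, 48.6 and 63.4 CPM (-0.85 ± 0.15, adjusted p = 0.0134), with no member of the 2 lists called there. In alveolar macrophages 3 of 47 were higher and 1 was lower, where 3.45% of all genes were higher and 2.83% lower. Cdkn1a, which encodes the CDK inhibitor p21, was higher (1.17 ± 0.13, adjusted p = 7.16e-07), as was Ccnd1 from 3, 3, 8 and 11 UMIs (4.10 ± 0.68, adjusted p = 0.000301), and Ccnd2 was lower (-0.78 ± 0.14, adjusted p = 0.000539). Smc4, a condensin subunit, was at 73.4, 66.9, 104 and 116 CPM (0.65 ± 0.17, adjusted p = 0.0238). Without the precursors, over all cells, 2 of 80 were lower, where 4.41% of all genes were: Tuba1b (-0.50, adjusted p = 0.0205) and Cdk6 (-0.61, adjusted p = 0.0316).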

How the data were processed

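Per the submitters' processing notes, reads were processed with Cell Ranger 3.0.2 and Seurat 3.0.0 against mm10. The deposited values are raw UMI counts per gene and barcode, 1 matrix per mouse, and free RNA was not subtracted here. Barcodes needed 200 genes or more and no more than 10% mitochondrial UMIs, and the highest-scoring simulated-doublet matches, 0.8% per 1000 cells, were removed (103 to 124 per library). Classes were rebuilt from marker genes (at least 2), since no cell annotation was used here, so they may differ from the submitters'. Counts were summed per library and class (at least 25 cells in each library) and tested with edgeR 4.0.16 (quasi-likelihood, TMM) in R 4.3.3, with Benjamini-Hochberg adjustment over all genes tested and a threshold of 0.05. A filter on low counts left out members listed as not tested. Between genotypes a gene could pass it through 1 genotype alone, so medians over tested genes depend on the filter. DESeq2 1.42.0, no filter, a replicate block, other gates, stricter cells, doublets kept and leaving out each library were the alternatives. Shares carry exact Clopper-Pearson 95% intervals, and a share of 0 the limit that 3 counts allow. Replicates of a genotype differed beyond sampling noise (chi-square per degree of freedom 2.16 to 10.2).

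The genes, lists and parts of the tests were chosen with earlier results of these data known. Named were Lmna, every member past the threshold, the 6 of each list with the most UMIs, a few fixed genes, the 3 lowest, and the smallest p per class. Genes named in the class comparison (Kif23, Bub1b, Ung and the like) and the summed CD4 T and regulatory T gates were chosen after their values were seen. On simulated counts edgeR recovered 58.5% (alveolar macrophages) to 88.0% (all cells) of 200 changed genes. The simulation gave every gene the same fixed spread and changed no low-count gene. It therefore does not give the power for members whose UMIs come from a few cells.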

Additional observations from a re-analysis of the deposited data

Results flagged for a closer look

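With the gates of the main setting, the fitted genotype effect on the cell cycle genes differed between the CD4 T and regulatory T gates. The same counts had already shown opposite directions in the 2 gates, so the fit is no separate support. An edgeR fit of both gates with a class by genotype term, added after the values of each gate had been seen, gave a difference past an adjusted p of 0.05 for 22 of 49 tested members, where 0.798% of all 8141 genes passed. All 22 were positive, which means that the difference of knockout from WT was higher in CD4 T cells than in regulatory T cells. On the log2 scale, among G2/M genes the difference was 5.36 for Birc5, 5.31 for Mki67, 4.57 for Ube2c, 4.31 for Cenpf, 3.72 for Cdca8, 3.98 for Nusap1, 3.05 for Cenpe, 3.09 for Kif11, 4.95 for Tpx2 and 3.53 for Cdca3. It was 6.44 for Ccnb2, 6.95 for Ccna2, 8.30 for Hmmr and 7.57 for Ccnb1, whose WT libraries had 0 UMIs in CD4 T cells, so that these fitted values depend on the prior count and are no bounds. Among G1/S genes it was 4.14 for Rrm2, 2.59 for Tyms, 2.05 for Rrm1, 1.80 for Mcm5, 1.62 for Tipin, 1.43 for Mcm3, 1.06 for Dut and 2.69 for Uhrf1.

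Behind these values stand 9 cycling cells of the CD4 T gate and 14 of the regulatory T gate. With 1 more marker required in each gate, or under the stricter cell filter, none of the 22 was called, and 12 members were called with cells carrying 1 precursor marker left out. Leaving out 1 library gave 9 (without WT 1) to 18 (without knockout 1) calls.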

How the results depend on the processing

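None of the 12 calls between genotypes within classes changed direction under any alternative that gave it a value. Of the 12, 4 of 7 with an adjusted p were called again by DESeq2, 12 without the low count filter, 9 with the replicate block (not Cdca8 in CD4 T cells or Dut and Uhrf1 in CD8 T cells), 0 of 2 under the stricter cell filter (at least 500 genes, at most 5% mitochondrial UMIs), 7 with doublets kept, 1 of 11 with 1 more marker in the gate, 8 with cells carrying 1 precursor marker left out, and 7 to 10 without 1 library. The stricter filter left 179 of 1220 CD4 T and 60 of 254 regulatory T cells. Higher calls within classes numbered 7, and 21 without the filter, 0 under stricter cells, 1 with 1 more marker and 9 to 25 without 1 library. Lower calls numbered 5, and 1 by DESeq2, 17 without the filter, 0 under stricter cells, 2 with doublets kept, 1 with 1 more marker, 2 without 1-precursor-marker cells and 8 to 19 without 1 library. Over all cells without precursors, 1 higher call became 0 under stricter cells and with doublets kept and 0 to 12 without 1 library, and 2 lower calls became 1 by DESeq2, 0 under stricter cells and 0 to 6 without 1 library. Over all cells 0 lower calls became 1 by DESeq2 and 0 to 43 without 1 library (43 without WT 1). Each class against the others gave 149 higher and 98 lower calls over the 10 classes, and 60 and 52 under stricter cells, with 156 lower without the filter. The count of members differing between the CD4 T and regulatory T gates, 22, was 0 under stricter cells, 0 with 1 more marker, 12 without 1-precursor-marker cells and 9 to 18 without 1 library. There the difference turned to -0.53 for Ccnb2 and -0.033 for Rrm1 with 1 more marker and to -0.55 for Mcm5 under stricter cells. Where no cause is named by the setting itself, the cause was not tested.

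The cycling share difference of -2.23 percentage points with and -0.18 without precursors turned to 0.119 and 0.0425 without WT 2 (-4.57 to 0.119 and -0.401 to 0.0425 when 1 library was left out). For cycling cells by class, the log2 difference in CD8 T cells turned to -0.36 at 1000 UMIs, -0.27 unthinned, -0.10 without WT 1 and -0.54 without knockout 1 (-0.54 to 0.99 when 1 library was left out). In NK cells it turned to -0.24 unthinned and -0.16 without knockout 2 (-0.16 to 0.60 when 1 library was left out), in alveolar macrophages to 0.0066 without knockout 2 (-4.74 to 0.0066 likewise), and in regulatory T cells to 0.15 at 4000 UMIs, 0.44 with 1 more marker and 0.079 without knockout 2 (-0.79 to 0.079 when 1 library was left out). The stricter cell filter could not be fitted there.

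The libraries share replicate numbers, but only 2 pairs exist and the labels name no shared litter or batch, so the numbers are not taken as pairs. The correlation of same-numbered libraries' deviations was -0.05 (CD8 T cells) to 0.22 (neutrophils). With the replicate block, higher calls within classes numbered 6 and lower calls 10, and over all cells without precursors there were 1 higher and 1 lower.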
